A study of Mus musculus with 8 samples.

Results

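The HNF, FOXA and Onecut endoderm factors are 7 mouse transcription factor genes, Hnf4a, Hnf4g, Foxa1, Foxa2, Foxa3, Onecut1 and Onecut2. Members were picked by gene name under a rule that uses no measured value, although earlier results of these data were known when the rule was written, and all 7 were found among the 25261 genes measured. The cells were mouse pancreatic ductal adenocarcinoma (PDAC) cells on a C57BL/6 background, either wild type (WT) for Setd2 or with Setd2 knocked out (KO). Chromatin was profiled by CUT&Tag, in which an antibody against a histone mark guides a transposase that cuts and tags the DNA around that mark. H3K36me3 was given over gene bodies, and H3K27ac and H3K27me3 at promoters. H3K27ac was given for a WT and KO pair with the word vitro in the sample titles (the vitro pair) and for another pair without it (the unlabelled pair). The H3K27me3 and H3K36me3 titles also lack that word. Each of these 8 groups held 1 library. There is therefore no replicate check and no test for any difference given here, and a difference between a KO and a WT library compares those libraries, not the genotypes. Every sample is labelled as cultured tumour cells, and the design text mentions established lines, but by the title of the series the cells came from tumours in the pancreas (orthotopic) by sorting. How Setd2 was removed, how many lines or clones were used and which driver mutations the tumours carried is not given in the sources used here.

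HNF4A and HNF4G are nuclear receptors that switch on metabolic and absorptive genes in liver and gut. The FOXA proteins are forkhead pioneer factors, able to bind closed chromatin and open it for other factors during formation of liver, pancreas and gut. ONECUT1 and ONECUT2, also called HNF6 and OC-2, join a cut domain to a homeodomain and act in early pancreas and liver. Together with GATA factors these genes form a network of mutual regulation, and in human pancreatic cancer HNF4A, FOXA and GATA6 are associated with the well-differentiated classical subtype. H3K27ac marks active promoters, H3K27me3 is laid down by Polycomb repressive complex 2, and SETD2 places H3K36me3 in the bodies of transcribed genes.

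RefSeq promoter sequences (assembly GRCm38.p6, 250 bases before to 50 after each start) were matched by symbol for 5 of the 7 genes, Hnf4a, Foxa1, Foxa2, Foxa3 and Onecut1, with 8 starts between them. Hnf4g and Onecut2 are given by name. The promoters of Hnf4a and Onecut1 lie at opposite ends of these 5 genes in CpG content, and Foxa2 lies between them, so these are shown 5′ to 3′ on the strand of the gene with every CpG in capitals. The Hnf4a sequence is the P2 promoter, chr2:163506607-163506906 on the plus strand, whose start lies 49 bases from the start of the deposited gene. The Foxa2 sequence is chr2:148046920-148047219 on the minus strand, and the Onecut1 sequence is chr9:74861671-74861970 on the plus strand, both around the deposited start of the gene.
Hnf4a P2: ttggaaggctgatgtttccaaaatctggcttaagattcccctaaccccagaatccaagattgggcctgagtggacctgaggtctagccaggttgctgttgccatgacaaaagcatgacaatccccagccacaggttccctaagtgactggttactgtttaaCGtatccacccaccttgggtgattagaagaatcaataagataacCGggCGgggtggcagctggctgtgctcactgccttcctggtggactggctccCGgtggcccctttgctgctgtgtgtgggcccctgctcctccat
Foxa2: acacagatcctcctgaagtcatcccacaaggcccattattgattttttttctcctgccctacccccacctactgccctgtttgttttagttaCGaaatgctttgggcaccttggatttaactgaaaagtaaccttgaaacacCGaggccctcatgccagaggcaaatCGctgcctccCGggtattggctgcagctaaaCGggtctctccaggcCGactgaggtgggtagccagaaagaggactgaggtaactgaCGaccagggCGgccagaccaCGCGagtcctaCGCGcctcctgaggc
Onecut1: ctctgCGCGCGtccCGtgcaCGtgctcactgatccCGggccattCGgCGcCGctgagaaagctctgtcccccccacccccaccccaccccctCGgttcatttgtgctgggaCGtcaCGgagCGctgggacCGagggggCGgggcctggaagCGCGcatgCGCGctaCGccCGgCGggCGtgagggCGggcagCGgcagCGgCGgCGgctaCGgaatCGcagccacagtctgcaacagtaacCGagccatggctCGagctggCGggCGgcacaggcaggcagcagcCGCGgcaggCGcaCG

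The Hnf4a P2 window held 4 CpGs in 300 bases, and 31.4% of the 32851 RefSeq promoters held fewer. The P1 window, 40298 bases downstream, also held 4. Onecut1 held 38 CpGs, more than 95.05% of promoters, and Foxa3 held 22. Foxa1 held 26, around a RefSeq start that lies 805 bases inside the deposited gene. Foxa2 held 12 at the deposited start, and 23 and 13 at the other RefSeq starts. Among the 5 genes with a sequence, Hnf4a had the fewest CpGs and Onecut1 the most.

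Short motifs were searched as exact letters on both strands of these windows. They included TGTTTAC and TATTTAC for forkhead factors, CAAAGTCCA and CAAAGGTCA for HNF4, ATCGAT and ATCAAT for Onecut factors, and AGATAA for GATA factors. Hnf4a P2 held ATCAAT and AGATAA side by side, 59 and 52 bases before its start, a pair of motifs that 1.27% of all promoters held somewhere in the window. ATCAAT alone was in 7.54% of promoters and AGATAA alone in 11.2%. Foxa1 held TGTTTAC, a motif found in 3.65% of promoters, on the opposite strand 141 bases before its RefSeq start. That position lies inside the deposited Foxa1 gene. Foxa2 held ATCAAT on the opposite strand 213 bases before the deposited start, and AGATAA at the RefSeq start farthest into the gene. None of the motifs searched was found in the Foxa3, Onecut1 and Hnf4a P1 windows. TATTTAC (3.04% of promoters), CAAAGTCCA (0.475%), CAAAGGTCA (0.478%) and ATCGAT (0.925%) matched none of the members' windows. A match describes letters and shows no binding, and a site that differs by any letter is missed. The matches in Hnf4a (chr2:163506790-163506819, plus strand) and Foxa1 (chr12:57546234-57546263, minus strand) are shown with 30 bases of context and the motif letters in capitals.
Hnf4a P2 ATCAAT and AGATAA: ttagaagaATCAATaAGATAAccgggcggg
Foxa1 TGTTTAC, opposite strand: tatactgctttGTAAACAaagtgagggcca

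Values are given as signal per kilobase, which is the deposited mean coverage per base times 1000. The depth of each library is unknown, so no counting error can be given. The median gene had a signal of 8.33 per kilobase in the unlabelled KO H3K27ac library, 7.54 in the unlabelled WT library, and 6.69 and 6.90 in the vitro KO and WT libraries. H3K27me3 medians were 3.79 (KO) and 3.23 (WT), and H3K36me3 medians were 2.9997 (KO) and 2.72 (WT). Over the Setd2 gene body H3K36me3 was 2.32 in the KO library and 2.38 in the WT library, and Setd2 promoter H3K27ac was 25.1 and 15.6 in the unlabelled pair and 18.8 and 19.4 in the vitro pair. Both Setd2 gene-body values lay below 2.65, the level needed for a ratio of this mark. Over all genes the H3K36me3 median was no lower in KO, and the mean was 5.19 (KO) and 5.80 (WT). Genes listed at 0 made up 28.3% (KO) and 32.9% (WT). These values show no broad loss of the mark, but the scaling of the libraries is not stated. The knockout is therefore known here from the labels alone. Epithelial markers had H3K27ac in all 4 libraries, with sums over 8 genes of 303 (KO) and 187 (WT) in the unlabelled pair and 454 and 474 in the vitro pair. None of the 8 was listed at 0 in these libraries, but Krt8, Krt18 and Krt19 had the largest values in each, with 165, 107 and 144 in the vitro KO library. In that library Epcam at 2.57, Cdh1 at 5.72 and Cldn7 at 6.29 lay below the median gene, and Krt7 at 14.4 and Cldn4 at 9.72 above it.

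Both HNF4 genes had less H3K27ac in the KO than in the WT library of each pair, and little H3K27me3. Hnf4a (chr2:163506808-163572910, plus strand, mm10), the main hepatocyte and gut member, had an H3K27ac signal of 15.6 per kilobase in the unlabelled KO library and 19.8 in the WT library. In the vitro pair the signals were 9.15 (KO) and 31.9 (WT). Hnf4g (chr3:3508030-3658052, plus strand), the second HNF4 gene, prominent in gut epithelium, had H3K27ac signals of 4.38 (KO) and 14.1 (WT) in the unlabelled pair and 8.69 (KO) and 19.7 (WT) in the vitro pair. The WT value was the higher in each of these 4 pairings of gene and pair. The vitro WT signal of Hnf4a was 3.49-fold the KO signal, and for Hnf4g the WT signal was 3.21-fold the KO signal in the unlabelled pair and 2.27-fold in the vitro pair.

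H3K27me3 at Hnf4a was 2.42 (KO) and 1.65 (WT) per kilobase, and at Hnf4g 1.87 (KO) and 0.713 (WT). These lay between the 18.6 and 36.3 percentiles of their libraries, so neither HNF4 promoter carried much of the Polycomb mark in either genotype. H3K36me3 over the gene body was 3.84 (KO) and 3.09 (WT) at Hnf4a, and 1.83 (KO) and 2.71 (WT) at Hnf4g. All 4 of these values lay between the 39.2 and 57.8 percentiles.

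The FOXA genes encode the forkhead pioneer factors, and their promoters had signal for both H3K27ac and H3K27me3, with more H3K27me3 in the KO library. H3K27ac was near the median gene at Foxa1 in the unlabelled KO library (46.4 percentile). The same held for Foxa3 in the vitro pair (53.6 percentile in KO, 56.6 in WT). Whether the marks lie on the same alleles was not tested. Foxa1 (chr12:57540628-57546916, minus strand) had H3K27ac signals of 7.12 (KO) and 11.8 (WT) in the unlabelled pair and 22.6 (KO) and 21.5 (WT) in the vitro pair. Foxa2 (chr2:148042877-148046969, minus strand), needed for early endoderm, had 22.8 (KO) and 19.5 (WT) in the unlabelled pair and 34.5 (KO) and 56.5 (WT) in the vitro pair. The WT Foxa2 value was higher in the vitro pair and the KO value in the unlabelled pair. Foxa3 (chr7:19013284-19023538, minus strand), the third FOXA gene, had 23.2 (KO) and 23.0 (WT) in the unlabelled pair and 8.18 (KO) and 9.77 (WT) in the vitro pair. Within each pair the Foxa3 libraries were nearly level.

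H3K27me3 was 90.6 (KO) and 68.1 (WT) at Foxa1, 75.04 (KO) and 36.4 (WT) at Foxa2, and 26.2 (KO) and 8.99 (WT) at Foxa3. The KO signal was 1.33-fold, 2.06-fold and 2.92-fold the WT signal. Foxa1 and Foxa2 were above the 90th percentile of genes in both H3K27me3 libraries, whereas Foxa3 was at the 89.5 percentile in the KO library and the 74.6 percentile in the WT library. The start of Foxa3 lies 839 bases from that of Sympk, a gene for a scaffold protein of mRNA 3′ end processing that runs the other way. If the promoter windows were 6000 bases centred on each start they would share 5161 bases. Sympk had H3K27me3 signals of 20.9 (KO) and 7.56 (WT), and with such windows the values of Foxa3 and Sympk could not be told apart. H3K36me3 over Foxa1 was listed at 0 in both libraries, and Foxa2 and Foxa3 were listed at 0 in the WT library beside 10.7 and 3.65 in the KO library. No fold is given for these.

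Of the Onecut genes, Onecut2 had the higher H3K27ac and near-level promoter marks in each pair, and Onecut1 had the lower H3K27ac and differed between the libraries of every pair. Onecut1 (chr9:74861921-74891781, plus strand), which acts upstream of endocrine and duct formation in the embryonic pancreas, had H3K27ac signals of 6.68 (KO) and 12.2 (WT) in the unlabelled pair and 4.86 (KO) and 9.54 (WT) in the vitro pair. Its H3K27me3 signal was 153 per kilobase in the KO library and 57.2 in the WT library, a 2.68-fold higher signal in KO. Both H3K27me3 values were above the 97th percentile of their library, and the KO value was at the 99.3 percentile. Its H3K36me3 signal was 0.102 (KO) and 11.8 (WT), in libraries where 28.3% (KO) and 32.9% (WT) of genes were listed at 0. The H3K27ac differences of Onecut1 were within 1.5-fold under some of the alternative settings given below.

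Onecut2 (chr18:64340364-64398488, plus strand), the paralogue of Onecut1, had H3K27ac signals of 43.3 (KO) and 43.4 (WT) in the unlabelled pair and 55.02 (KO) and 61.8 (WT) in the vitro pair. Its H3K27me3 signal was 89.5 (KO) and 90.2 (WT), and its H3K36me3 signal 10.8 (KO) and 9.10 (WT). It had the highest H3K27ac of the 7 genes in each of the 4 H3K27ac libraries. The promoter was above the 93rd percentile in all 4 H3K27ac and both H3K27me3 libraries, so both marks were high in libraries of the same genotype. Whether they lie on the same alleles was not tested.

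**Figure D1:**
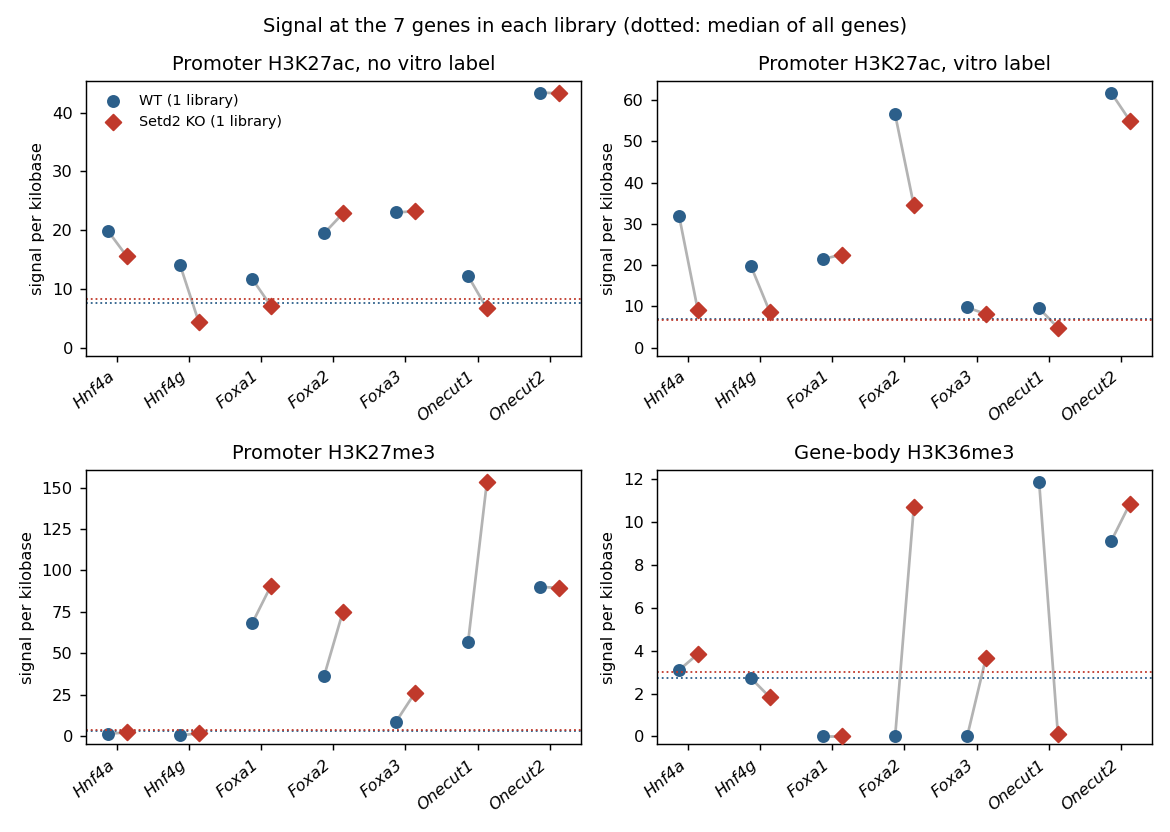
Signal per kilobase (vertical axes) of the 7 genes in the 8 libraries, with a panel for each mark and setting. Blue circles are WT, red diamonds KO, each point is 1 library, and dotted lines are the medians of all genes. Onecut1 H3K27me3 reaches 153 in the KO library against 57.2 in WT, Hnf4a vitro H3K27ac is 9.15 against 31.9, and the Onecut2 points lie close together in the promoter panels.

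The order of H3K27ac levels in the vitro WT library, from the highest, was Onecut2 (61.8), Foxa2 (56.5), Hnf4a (31.9), Foxa1 (21.5), Hnf4g (19.7), Foxa3 (9.77) and Onecut1 (9.54). In the unlabelled WT library it was Onecut2, Foxa3, Hnf4a, Foxa2, Hnf4g, Onecut1 and Foxa1, from 43.4 down to 11.8. With 1 library per group there is no spread against which neighbours in these orders could be separated. All 7 genes were above the median gene in both WT H3K27ac libraries. In the KO libraries 4 of 7 were above the median in the unlabelled pair and 6 of 7 in the vitro pair. The promoters of Foxa1, Foxa2, Onecut1 and Onecut2 were above the 90th percentile of H3K27me3 in both genotypes.

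Each pair was then set against all genes as log2((KO + floor) / (WT + floor)), where the floor is the 25th percentile of positive values in the pair and a gene counts if its mean reaches that floor. The ratio understates differences of low genes. A gene was counted as higher or lower where its ratio passed 1.5-fold. In the unlabelled pair 2 of 7 members were lower in KO, where 11.5% of 18674 genes were, and none was higher, where 33.3% of genes were. The lower genes were Hnf4g, at a log2 ratio of -1.18, and Onecut1, at -0.64. Foxa1 at -0.53 lay just inside 1.5-fold, Hnf4a was at -0.30, and Onecut2, Foxa3 and Foxa2 lay at 0.00, 0.01 and 0.20.

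The members' median in the unlabelled pair was -0.30 and that of all genes 0.32. The difference between these libraries was not a uniform shift. Genes with 0 to 4 CpGs in the RefSeq promoter had a median signal of 4.38 (KO) and 4.99 (WT). Those with 20 or more had 20.2 and 13.7, and 1254 (KO) and 347 (WT) genes were listed at 0. With ratios centred on the median of all genes 4 members were lower, and with quantile scaling 5 were lower. With a pseudocount 5 times larger none was. In this pair acinar markers were also lower in KO in 4 of 6 genes counted, with summed H3K27ac of 42.7 in KO and 93.3 in WT over 7 genes. Hepatocyte marker sums were 12.5 and 24.9 over 6 genes, and islet marker sums 11.7 and 30.7 over 6 genes, with Gcg listed at 0 in KO. Fibroblast marker sums were 97.3 and 65.6 over 7 genes and endothelial sums 33.0 and 36.6 over 5, with none listed at 0. Leukocyte sums were 64.2 and 50.3 over 7, of which Cd68 alone made 46.0 and 16.2, and 4 of the 5 leukocyte genes counted had ratios below 0, with a median of -0.49. Their part in the members' values was not tested.

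The vitro pair had more members lower in KO than the background share. It placed 4 of 7 lower, against 13.6% of 18961 genes, and none higher, against 10.9%. Hnf4a was the farthest, with a log2 ratio of -1.59 that only 0.675% of the counted genes lay below, followed by Hnf4g at -1.01, Onecut1 at -0.73 and Foxa2 at -0.68. Foxa3 at -0.21, Onecut2 at -0.16 and Foxa1 at 0.07 were within 1.5-fold. The members' median was -0.68 and that of all genes -0.07. With a pseudocount 5 times larger 2 members remained past 1.5-fold, Hnf4a and Hnf4g. In this pair the acinar sums were 18.2 (KO) and 24.3 (WT), hepatocyte sums 18.4 and 16.5, islet sums 17.0 and 17.0, fibroblast sums 40.1 and 24.4, leukocyte sums 60.2 and 50.6, and endothelial sums 15.8 and 16.8. Col1a1 made 23.8 and 5.29 of the fibroblast sums and Cd68 45.5 and 30.1 of the leukocyte sums, and in both lists 3 of 5 genes counted had ratios below 0 (medians -0.03 and -0.25). Epithelial markers were lower in KO at 3 of 8 genes, Cldn7 at -2.41, Cdh1 at -1.73 and Krt7 at -1.37, and higher at none. Their part in the members' values was not tested here either.

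For H3K27me3, 6 of the 7 members reached the floor, Hnf4g being below it. Of these 6, 3 were higher in KO, against 30.1% of 19035 genes, and none was lower, against 16.8%. Onecut1 and Foxa3 both had log2 ratios of 1.40 and Foxa2 had 1.01. Foxa1 at 0.41, Hnf4a at 0.31 and Onecut2 at -0.01 were within 1.5-fold. The median over the 6 was 0.71 and that of all genes 0.18. With 30.1% of genes past the threshold in the same direction, 3 of 6 is a share above the background resting on few genes. Of these, Foxa3 may share its window with Sympk. The same 3 were past 1.5-fold under each alternative processing that was tried. Epithelial markers were higher in KO in 6 of 8 genes counted for this mark, with a median of 0.86.

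**Figure D2:**
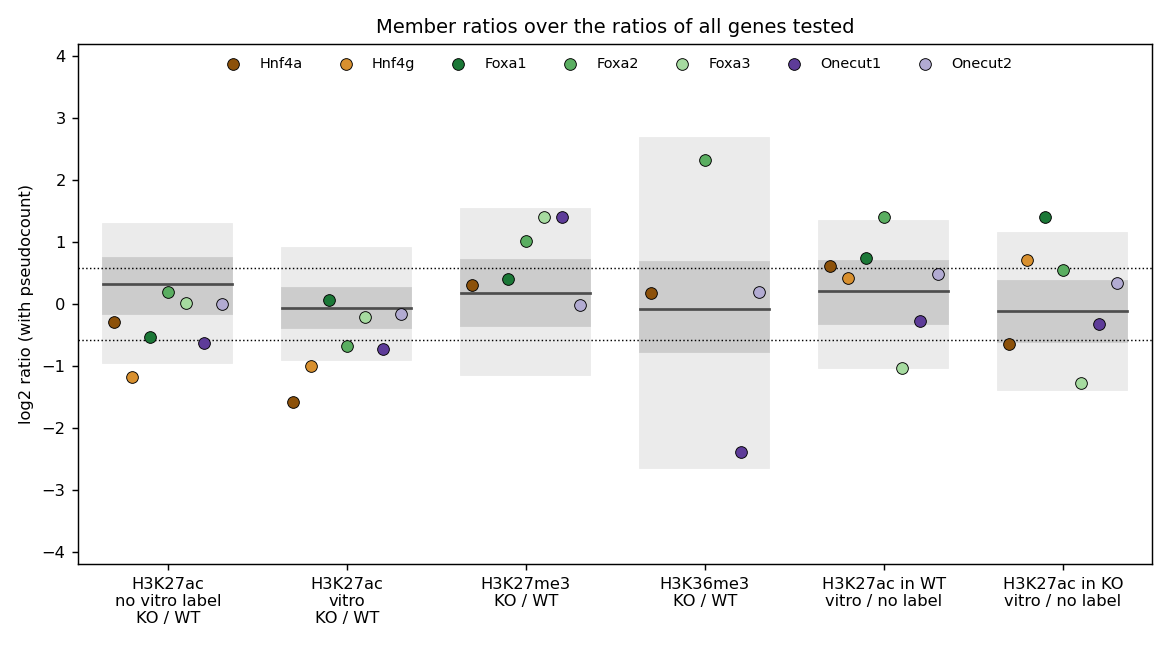
Log2 ratios of KO over WT (and of vitro over unlabelled) for the 7 genes, each point 1 gene in 1 comparison, over grey boxes spanning the middle 50% and 90% of all genes counted, with the median as a line and dotted lines at 1.5-fold. In the vitro H3K27ac comparison Hnf4a lies at -1.59 outside the boxes, and in H3K27me3 Onecut1 and Foxa3 lie at 1.40.

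Gene-body H3K36me3, the mark written by SETD2, was at or above the floor at 4 members. Of these, 1 was higher in KO (27.1% of 15487 genes) and 1 was lower (30.3%), so the members' shares were close to the background. The higher gene was Foxa2, listed at 0 in WT. The lower was Onecut1, with a log2 ratio of -2.40. Hnf4a at 0.18 and Onecut2 at 0.20 were near level. Foxa2 is the shortest of the 7 genes, and how many fragments lie behind its value is not known.

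Both H3K27ac pairs and H3K27me3 were then read together. Hnf4g and Onecut1 were past 1.5-fold lower in both H3K27ac pairs, a combination shown by 394 of 17300 genes, or 2.28%. Hnf4a, Hnf4g, Onecut1 and Onecut2 were below 0 in both pairs, as were 19.7% of genes, although for Onecut2 the unlabelled ratio was 0.00 to the second decimal. Lower vitro H3K27ac with higher H3K27me3 occurred at Foxa2 and Onecut1 among the 6 members counted and at 4.79% of 14975 genes. The H3K27me3 titles lack the word vitro, so this pattern joins libraries with different labels. Foxa2 was at 0.20 in the unlabelled H3K27ac pair. Onecut1 alone among the members showed lower H3K27ac in both pairs with higher H3K27me3, as did 108 of 13580 genes (0.795%). With the larger pseudocount Onecut1 was at -0.31 and -0.37 in the H3K27ac pairs and Foxa2 at -0.57 in the vitro pair, all within 1.5-fold, and with the floor at the median Onecut1 was at -0.45 and -0.48. Hnf4a and Hnf4g, by comparison, combined lower vitro H3K27ac with H3K27me3 of at most 2.42 per kilobase in any library. At Hnf4a vitro H3K27ac differed at a promoter where H3K27me3 was low in both genotypes.

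**Figure D3:**
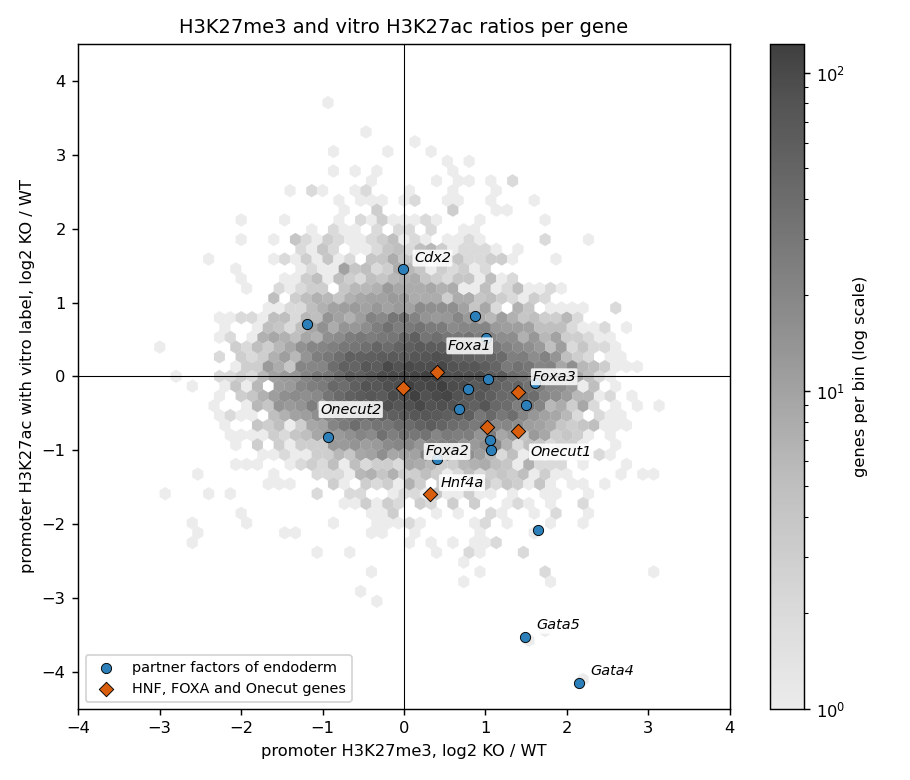
Promoter H3K27me3 (horizontal axis, log2 KO over WT) against vitro H3K27ac (vertical axis, log2 KO over WT), with all genes as grey hexagons shaded by number, members as orange diamonds and partner factors of endoderm as blue circles. Foxa2 and Onecut1 lie in the lower right quadrant at 1.01 and -0.68, and at 1.40 and -0.73, Hnf4a lies at 0.31 and -1.59, and Gata4 lies farthest out at 2.15 and -4.15. The H3K27me3 libraries do not carry the vitro label.

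The vitro and unlabelled libraries of the same genotype were also set side by side. These comparisons use the same 4 libraries as the genotype comparisons above and are not independent of them, and the titles do not explain the word vitro. In WT cells 3 of 7 members were higher in the vitro library (30.1% of 19322 genes) and 1 was lower (16.0%). The higher were Foxa2, with a log2 ratio of 1.41, Foxa1 at 0.74 and Hnf4a at 0.62, and the lower was Foxa3 at -1.03. With the larger pseudocount, centred ratios or quantile scaling only Foxa2 was still higher. Onecut2 at 0.48, Hnf4g at 0.41 and Onecut1 at -0.28 were within 1.5-fold. Among KO libraries 2 of 7 were higher (16.5% of 18976 genes), Foxa1 at 1.40 and Hnf4g at 0.72, and 2 were lower (26.3%), Foxa3 at -1.28 and Hnf4a at -0.64, which was between -0.53 and -0.39 under those settings. Foxa2 at 0.55, Onecut2 at 0.33 and Onecut1 at -0.33 were within 1.5-fold. Acinar markers were lower in the vitro library at 5 of 6 genes counted in WT and 4 of 6 in KO, fibroblast markers at 5 of 5 (median -0.95) and 6 of 7 (median -1.63). Endothelial markers were lower at 3 of 4 and 2 of 5 and leukocyte markers at 2 of 6 and 1 of 5. Epithelial markers were higher at 5 of 8 and lower at 1 in WT, and higher at 3 and lower at 4 in KO. The part of these markers in the members' values was not tested. Hnf4a lay on opposite sides of 0 in the WT and KO libraries. Foxa3 was lower in the vitro library in both genotypes, and Sympk, which may share its window, was at -0.85 (WT) and -1.26 (KO).

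The genes around the members were read to see how local the differences were. Coordinates were given for 18185 of the 25450 rows, and only genes with coordinates were read as neighbours. A closer gene without them would be missed. Hnf4aos, an antisense gene that overlaps Hnf4a, had vitro H3K27ac of 5.09 (KO) and 21.3 (WT), a log2 ratio of -1.69 beside the -1.59 of Hnf4a. In the unlabelled pair it was at 0.25, with 6.57 (KO) and 4.99 (WT). Its start lies 34863 bases from the Hnf4a P2 start and 5435 bases from the P1 start, so a 6000-base window on P1 would share 565 bases with it and one on P2 none. Which Hnf4a start the authors used is not stated. R3hdml, the nearest gene upstream at 14490 bases between starts, had vitro H3K27ac of 37.4 (KO) and 58.4 (WT), a log2 ratio of -0.61, and Ttpal on the other side was at -0.28. The vitro difference was therefore larger at Hnf4a and Hnf4aos than at the flanking genes, although R3hdml was also past 1.5-fold lower in KO.

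Around Onecut1, H3K27me3 was 56.4 (KO) and 40.9 (WT) at Gm16551, 13938 bases away, a log2 ratio of 0.45, and Fam214a on the other side was at 0.70 with signals of 4.51 and 2.19. The 1.40 of Onecut1 was the largest of the 3 at that locus. Pax1, a paired-box developmental gene and the nearest gene of the table before Foxa2, had H3K27me3 of 178 (KO) and 83.3 (WT), a ratio of 1.08 close to the 1.01 of Foxa2, although their starts lie 685044 bases apart. Sstr4 on the other side was at -0.40. Near Foxa1, Ttc6 was at 0.31 and Mipol1 at 1.80, with Mipol1 signals of 4.18 and 0.110. St8sia3os and Fech, on either side of Onecut2, were at -0.79 and -1.35, while Onecut2 was at -0.01.

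**Figure D4:**
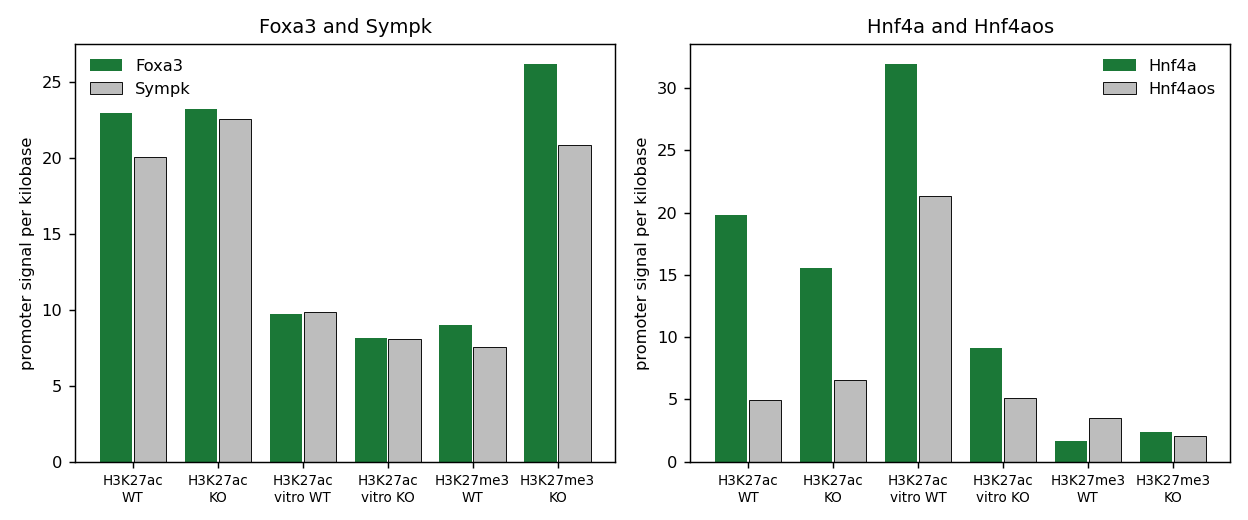
Promoter signal per kilobase (vertical axes, bars from 0) in the 6 promoter libraries for Foxa3 (green) beside Sympk (grey) and for Hnf4a (green) beside its antisense gene Hnf4aos (grey), each bar 1 library. For H3K27me3 Foxa3 and Sympk are at 26.2 and 20.9 in KO and 8.99 and 7.56 in WT, and in vitro H3K27ac Hnf4a and Hnf4aos are at 31.9 and 21.3 in WT and 9.15 and 5.09 in KO.

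Partner factors of the same network, a list of 20 genes that includes GATA and Cdx factors, gave a frame for these values. For this and the following lists, 13.6% of all genes counted were lower in KO and 10.9% higher in vitro H3K27ac. The lower and higher shares were 11.5% and 33.3% in the unlabelled pair, and 16.8% and 30.1% for H3K27me3. For vitro H3K27ac 7 of 18 counted were lower in KO and 5 higher, with a median of -0.28, and for H3K27me3 13 of 18 were higher and 2 lower, with a median of 0.94 beside the 0.18 of all genes. Gata4, an endoderm zinc finger factor, had vitro H3K27ac of 1.03 (KO) and 54.8 (WT) and H3K27me3 of 170 (KO) and 37.1 (WT). Cdx2, an intestinal homeobox factor, was higher in KO in vitro H3K27ac, with 108 (KO) and 38.2 (WT). In the unlabelled pair 4 of 18 partner genes were lower and 5 higher, with a median of 0.26, led by Gata4 at -1.77 and Klf5 at 1.03.

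Known targets of the members did not move as one group. Of 24 targets of HNF factors in liver and gut, 18 were counted in vitro H3K27ac, with 4 lower, 3 higher and a median of -0.04 beside -0.07 for all genes. Lgals4, a gut galectin, had 12.4 (KO) and 65.5 (WT) and Vil1, the brush-border villin, 8.46 and 18.7, while Cldn2, a tight junction claudin, had 29.3 and 9.08. In the unlabelled pair 6 of 18 were lower and 2 higher, with a median of -0.38, and for H3K27me3 6 of 20 were higher and 3 lower, with a median of 0.16.

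Of 20 FOXA targets of endoderm, which include Hnf4a and Onecut1 themselves, 7 of 15 counted were lower in vitro H3K27ac and none higher, with a median of -0.50. Erbb3, a receptor of the EGF receptor family, had 5.60 (KO) and 26.2 (WT), Cdh1, the epithelial cadherin, 5.72 and 24.0, and Tff1, a trefoil peptide, 2.29 and 6.66. In the unlabelled pair 3 of 15 were lower and none higher, with a median of 0.06, and for H3K27me3 8 of 19 were higher and 5 lower, with a median of 0.31. Classical subtype genes had 6 of 19 lower and 2 higher in vitro H3K27ac, with a median of -0.22, and basal-like subtype genes 2 of 20 lower and 2 higher, with a median of -0.12. Unlabelled H3K27ac went the other way for classical genes, with 7 of 17 higher, 3 lower and a median of 0.27. Basal-like genes had 5 of 19 higher and 3 lower there, with a median of 0.28, beside 0.32 for all genes. The lists share members with each other and were not tested.

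**Figure D5:**
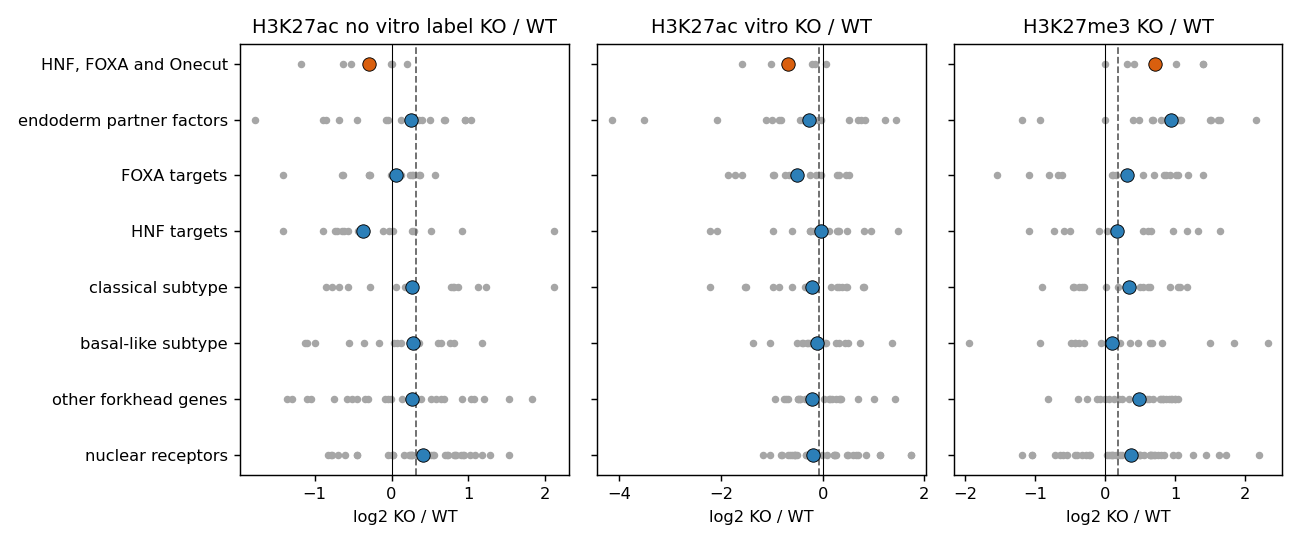
Log2 ratios of KO over WT for the genes of each list (small grey points) and the list medians (large points) in the promoter comparisons, with the median of all genes counted as a dashed line. In vitro H3K27ac the members' median is -0.68, the FOXA target median -0.50 and the HNF target median -0.04, and in H3K27me3 the partner factor median is 0.94.

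The genes whose promoter levels were most like each member's were found by the root mean square difference of log2 signal over the 6 promoter libraries. Foxa2 was nearest to Foxq1, another forkhead gene, at 0.27. Foxa1 was nearest to Hlx, a homeobox gene, at 0.35 and Cygb, the cytoglobin gene, at 0.45, and Onecut2 to Irx5, an Iroquois homeobox gene, at 0.50. Foxa3 was nearest to Sympk at 0.17, whose window it may share, and Slc30a1, a zinc transporter gene, at 0.32. Hnf4a was nearest to Abhd18 at 0.11 and Tm6sf2 at 0.19, Hnf4g to Dhx57 at 0.21 and Tigd2 at 0.23, and Onecut1 to Car14, a carbonic anhydrase gene, at 0.21 and Gpr162 at 0.25.

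Genes within 0.5 log2 numbered 284 for Hnf4a, 205 for Hnf4g, 86 for Onecut1 and 49 for Foxa3, but 6 for Foxa2, 2 for Foxa1 and none for Onecut2. When the H3K36me3 libraries were added, 1 of the 14 nearest genes was the same, and the numbers became 143 for Hnf4a, 92 for Hnf4g, 6 for Onecut1, 9 for Foxa3, 2 for Foxa2, 7 for Foxa1 and none for Onecut2. Both the names and these numbers thus depend on which libraries enter.

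CpG content was set beside the H3K27me3 levels over all genes with a RefSeq promoter. A WT H3K27me3 signal of at least 30 per kilobase was found at 4.24% of 2361 genes with 0 to 4 CpGs, where Hnf4a lies, and at 8.43% to 9.02% of genes in the bins of higher CpG content. The median WT signal did not follow that order. It was 4.22 at 0 to 4 CpGs, 5.26 at 5 to 9, 3.84 at 10 to 14, 3.07 at 15 to 19 and 2.63 at 20 or more. Foxa1 with 26 CpGs, Foxa2 with 12 and Onecut1 with 38 were past 30, and Foxa3 with 22 CpGs was not. In this family the CpG-poor Hnf4a promoter shown above was the one with the lowest H3K27me3 among the 5 with a sequence. Its WT signal of 1.65 was also below the median of its own CpG bin, and a link to CpG content was not tested.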

How the data were processed

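Mouse PDAC cells were profiled by CUT&Tag in 8 libraries, 1 per group, grouped by sample title and genotype. The authors deposited 1 table of signal, that is, coverage averaged over a promoter or a gene body. Bowtie2 2.4.2, MACS2 2.2.7.1, HOMER and build mm10 are named in the submitters' processing notes. Neither their settings nor the scaling, window and filters are stated there, and the depth per library is unknown. Promoter values times 6000 were whole hundredths (within 0.05), so a 6000-base window or a divisor of it is implied.

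From the 25450 rows, 189 were joined to a gene of the same name by the highest mean, leaving 25261 genes, of which 25041 carried a current symbol and 105 an older one. Ratios used the floor as pseudocount and filter: 3.29 for unlabelled H3K27ac, 2.18 for vitro H3K27ac, 1.54 for H3K27me3, 2.65 for H3K36me3, and 2.88 (WT) and 2.30 (KO) between settings. No test was run. The alternatives were other pseudocounts, no filter, a floor at the median, centred ratios, quantile scaling, the mean over rows of a gene, and all 8 libraries for nearest profiles. The code was tested on simulated data. Python 3.11.15, pandas 2.3.3, numpy 2.4.6 and matplotlib 3.10.9 were used.

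The members and the 14 gene lists were chosen with earlier results of these data known. Genes named are the 7 members, antisense and flanking genes, the 2 nearest profiles per member, up to 4 of each list per comparison with the largest ratios among genes at or above the floor, and Setd2. Gcg was named because it was listed at 0, after its value was seen. Some genes that this rule names are not reported here.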

Additional observations from a re-analysis of the deposited data

Results flagged for a closer look

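The log2 ratios of KO over WT in promoter H3K27ac had opposite signs in the vitro and the unlabelled pair at the 3 FOXA genes, although of these 6 ratios only that of Foxa2 in the vitro pair passed 1.5-fold. The log2 ratio in the vitro pair minus that in the unlabelled pair was 0.60 for Foxa1 (0.07 and -0.53), -0.88 for Foxa2 (-0.68 and 0.20) and -0.22 for Foxa3 (-0.21 and 0.01). With 1 library in each group these differences were not tested. The Foxa3 ratios are near 0 in both pairs and its window may overlap that of Sympk, whose ratios were -0.24 and 0.15. For Foxa2 the unlabelled ratio was -0.12 with centred ratios and -0.32 with quantile scaling, the same side of 0 as its vitro ratio under those settings, and for Foxa3 it was -0.31 and -0.54, again the same side. For Foxa1 the directions stayed opposite under every setting tried.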

How the results depend on the processing

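No paired analysis was possible because each group held 1 library and the labels gave no replicate numbers. No result changed direction past the 1.5-fold threshold under any alternative. In unlabelled H3K27ac the count of members lower in KO was 2 as reported, 0 with a pseudocount 5 times larger, 1 with the floor at the median, 4 with centred ratios and 5 with quantile scaling, and the median went from -0.30 to -0.61 (centred) and -0.76 (quantile). In vitro H3K27ac the count of 4 fell to 2 with the larger pseudocount, and the median of -0.68 became -0.37 with it and -0.48 with the floor at the median. The H3K27me3 median of 0.71 became 0.53 (centred) and 0.40 (quantile), and the H3K36me3 count of higher members went from 1 to 2 without the filter. Between settings in WT the count higher of 3 became 1 with the larger pseudocount, 1 centred and 1 with quantile scaling. In KO the count higher of 2 became 1 with the larger pseudocount and 1 with the floor at the median, and the count lower of 2 became 1 with each of these, 1 centred and 1 with quantile scaling. Of the 14 nearest genes, 1 was shared when all 8 libraries were used. Among results for single genes and lists, 517 stayed on the same side of 1.5-fold, 24 no longer passed it and 15 newly passed it. Hnf4a ranged from -1.76 to -1.10 and Hnf4g from -1.14 to -0.64 in vitro H3K27ac. Unknown depth limits the low values most, among them H3K36me3 over short genes and H3K27me3 at Hnf4a and Hnf4g. The cause of each move was not tested.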

Other observations

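Other genes of the members' protein families were read in the same way. Of 34 other forkhead genes, 14 of 31 counted were higher in KO for H3K27me3 and 1 was lower, with a median of 0.48 beside 0.18 for all genes. Among all genes counted 30.1% were higher and 16.8% lower. Foxc2, a mesoderm forkhead factor, had 93.8 (KO) and 45.1 (WT) per kilobase, Foxf1, a gut mesenchyme factor, 168 and 84.1, and Foxj1, which drives motile cilia, 56.9 and 28.8. In vitro H3K27ac 4 of 25 were lower and 3 higher, beside 13.6% and 10.9% of all genes. The median was -0.22, and Foxc1 had 12.1 (KO) and 3.10 (WT).

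Of 46 nuclear receptor genes, the class to which the HNF4 pair belongs, 16 of 44 were higher in H3K27me3 and 6 lower, with a median of 0.37. These shares were near the 30.1% higher and 16.8% lower of all genes. Nr4a1, an immediate early receptor gene, had 11.8 (KO) and 1.37 (WT), and Ppara, a regulator of fatty acid oxidation, 90.9 and 28.6. Vitro H3K27ac was lower at 7 of 38 and higher at 8, beside 13.6% and 10.9% of all genes, with a median of -0.18. Esr1, the oestrogen receptor alpha gene, had 21.6 (KO) and 4.998 (WT).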
